A study of Rattus norvegicus with 37 samples.

Results

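Liver RNA of 4 sedentary rats with a contused thoracic spinal cord (CONT SCI) was compared with liver RNA of 4 sedentary uninjured rats (No SCI). These 8 libraries are all the samples of the Exercise set that the labels call No SCI or CONT SCI without training, out of 37 libraries in the series. All 8 rats were female Sprague-Dawley animals of 235 to 249 g, put at 8 to 9 weeks of age at the start from their weight. The CONT SCI rats received a moderately severe contusion of 25 g-cm at T2, the second thoracic level, and were sampled 11.5 weeks later, and the No SCI rats were sampled at the matching age. From day 3 after injury every rat of the set lived with a cage-mate of its own group in a tiny cage that restricts movement, so cage size did not differ between the groups. The comparison therefore asks how the liver of an inactive rat differs long after a contusion from that of an equally confined rat without one.

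The design limits what a difference can be tied to. The injured rats also had anaesthesia, a laminectomy, an antibiotic, an opioid and manual bladder expression, and no sham operation is described for the uninjured rats, so contusion and surgical care cannot be told apart. Sprague-Dawley rats are outbred. Which rats shared a cage is not stated, and since cage-mates came from the same group, the livers of a group may come from fewer cages than rats. Bulk liver RNA was sequenced, in which fewer cells of a type and less RNA per cell cannot be told apart. The files give genes only by Ensembl identifier, so the labelled tissue was not checked against liver markers here, and no gene function or sequence is given for the genes below.

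The liver is made up mostly of hepatocytes, which secrete most plasma proteins and carry out gluconeogenesis, lipid handling and bile acid synthesis. Its sympathetic fibres arise from the thoracic spinal cord below the upper segments and reach it through the coeliac ganglion, whereas its parasympathetic supply runs in the vagus nerve outside the cord. A lesion at T2 therefore lies between the brainstem and the sympathetic outflow to the liver and leaves the vagal route intact.

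Counted reads per library ran from 28427149 to 36761953, and the group medians were 33833818 in No SCI and 33985706 in CONT SCI. Reads fell on 15412 to 15706 genes per library, and 13836 genes had at least 1 read in all 8. The 8 libraries were distinct: over the 28 pairs the lowest reduced chi-square of their counts was 33.95, where sampling noise alone gives about 1. No SCI replicates 2 and 4 lay further from the rest of their group than any CONT SCI library did, replicate 2 the furthest. The mean that each was set against included the other. In No SCI replicate 2, 432 of the 12482 genes tested lay more than 2-fold from the mean of the other 3 uninjured livers on the log2(CPM + 1) scale, against 72, 96 and 234 genes for No SCI replicates 1, 3 and 4. The same measure gave 50 to 143 genes in the CONT SCI livers. The scaling factor of No SCI replicate 2 by TMM (trimmed mean of M values, edgeR's library scaling) was 1.115, against 0.9735 to 1.004 in the other 7 libraries. Results are therefore also given without replicate 2.

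Of 24613 genes in the table, 12482 had enough counts to be tested. The level of 1 gene differed between the groups, and rose in CONT SCI, at an adjusted p under 0.05 in edgeR's quasi-likelihood test, with p-values adjusted by Benjamini-Hochberg, which is 0.00801% of the genes tested. No gene fell by that criterion. At an unadjusted p under 0.05 there were 561 genes, 4.49% of those tested, of which 251 (2.01%) were higher and 310 (2.48%) lower in CONT SCI. The count of adjusted calls did depend on the test: DESeq2's Wald test called 68 genes with 38 higher and 30 lower, the edgeR call among them.

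The gene that changed was ENSRNOG00000021345. Its level in the No SCI livers was 15.5, 16.8, 17.5 and 16.8 CPM (the counts-per-million scale, with TMM over the 8 libraries). In the CONT SCI livers it was 133, 141, 122 and 135 CPM. The groups were far apart and each was tight, with 16.65 ± 0.842 CPM (SD, n = 4) in No SCI and 132.8 ± 7.72 CPM (SD, n = 4) in CONT SCI. The log2 fold change was 2.99 (SE 0.11, 95% interval 2.76 to 3.23), a level 7.97-fold higher in CONT SCI, with an adjusted p of 3.57e-07 by edgeR's quasi-likelihood test. Depth did not limit this value, since the lowest count in any of the 8 libraries was 515 reads. The exact two-sided permutation test over the 70 relabellings of the 8 livers gave p = 0.0286, the smallest it can give for 4 against 4. Any gene whose groups do not overlap gives this value, and the gene was picked from these same livers. That p therefore adds no support to the call. Leaving out each liver in turn kept the gene called 8 times in 8. With all 5 groups of the Exercise set in one fit the log2 fold change was 3.00, but the adjusted p by edgeR was 0.726.

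**Figure D1:**
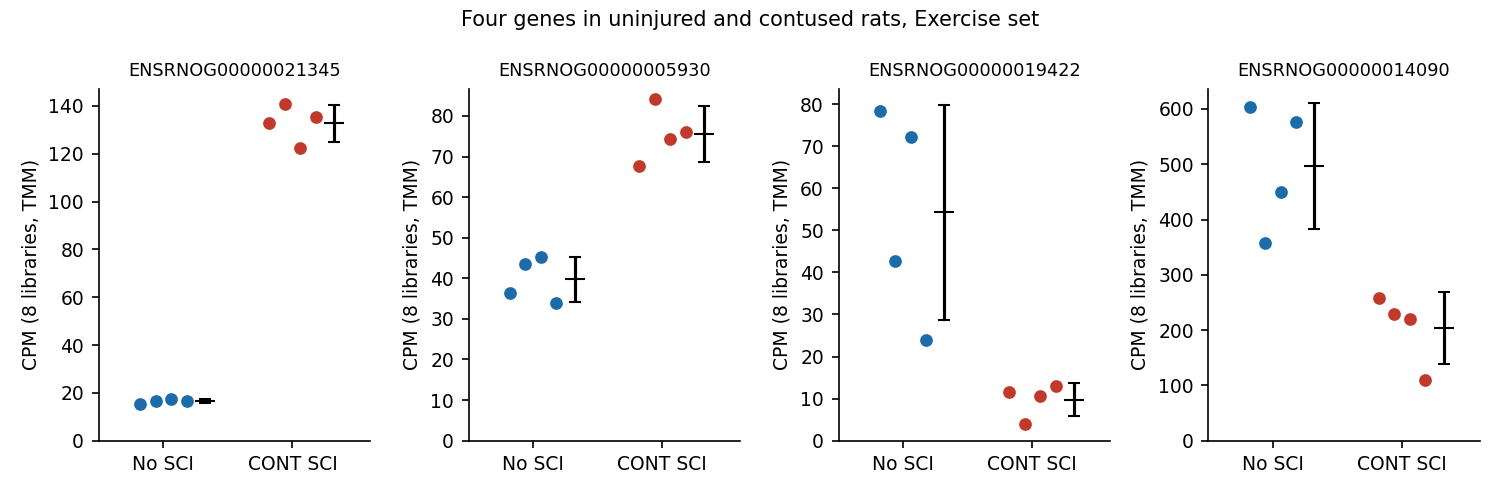
Level of 4 genes in each liver, in CPM scaled by TMM over the 8 libraries (points), with the mean and SD of each group (bars, n = 4). For ENSRNOG00000021345 the CONT SCI livers lie between 122 and 141 CPM and the No SCI livers between 15.5 and 17.5, and in the other panels the groups do not overlap but lie closer or spread wider.

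The levels of ENSRNOG00000021345 in the rest of the series show where the 2 groups sit, here in CPM scaled over all 37 libraries. Across the 37 livers it lay either at 13.96 to 27.16 CPM or at 115.6 to 467.3 CPM, with no liver in a 4.26-fold gap between, and the next widest step between ranked livers was 1.32-fold. The low side held 8 livers and the high side 29. All 4 No SCI livers of the Exercise set were low and all 4 CONT SCI livers were high. Contused livers also occurred on the low side: 3 of 5 in CONT SCI + SWIM (contusion followed by swimming) and 1 of 5 in CONT SCI + SWW (contusion followed by shallow water walking). All 4 livers of TX SCI (complete transection at T2) were high, with a median of 183.1 CPM. Time since injury was not the same in these groups: the TX SCI rats were sampled at 8.5 weeks, and for the trained rats the labels give 11.5 weeks and the study's text a later time.

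Uninjured livers occurred on the high side as well. In the In-Cage set, a separate group of rats, the 5 uninjured rats in standard cages (No SCI + Standard) had a lowest level of 171.1 CPM, a median of 209.6 and a highest of 467.3. The 5 contused rats in tiny cages of that set (CONT SCI + Tiny) had 286.2, 295.9 and 371.9 CPM in the same order, and the 5 in large cages (CONT SCI + Large) 176.4, 261.7 and 355.6. High levels were thus present with and without injury, and low levels occurred in injured and uninjured rats of the Exercise set and in no liver of the In-Cage set. Between CONT SCI + Tiny and No SCI + Standard the log2 fold change of ENSRNOG00000021345 was 0.24 (SE 0.23), with an adjusted p of 0.484 by edgeR's quasi-likelihood test.

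**Figure D2:**
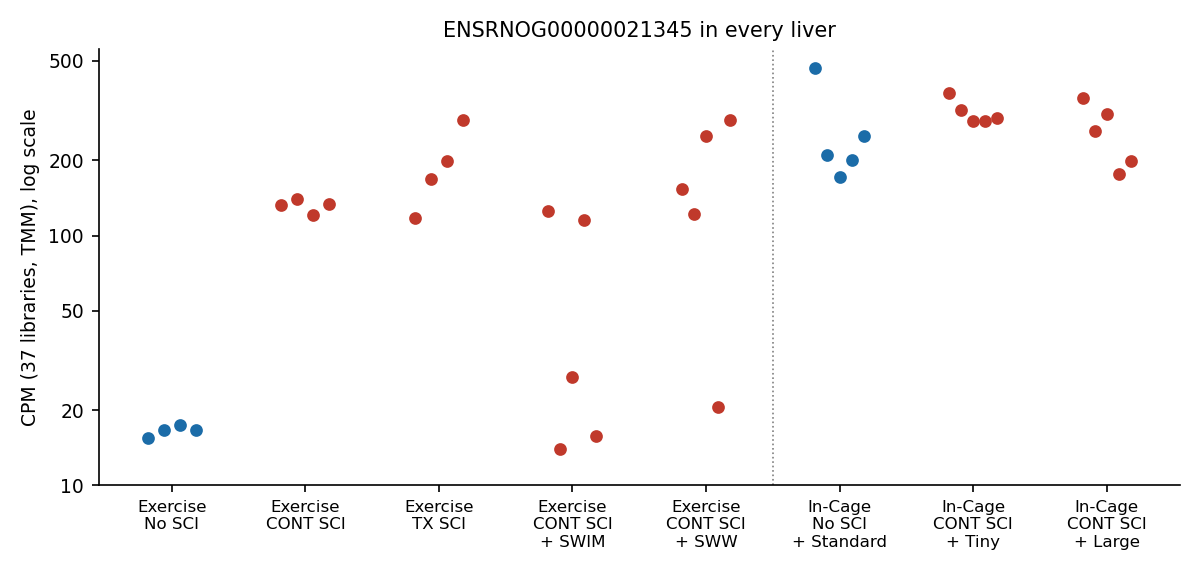
Level of ENSRNOG00000021345 in each of the 37 livers by group, in CPM scaled by TMM over all libraries (log axis). Blue points are uninjured and red points injured rats, and the dotted line parts the Exercise set (left) from the In-Cage set (right). The 8 livers at or below 27.16 CPM are the 4 No SCI livers of the Exercise set, 3 of CONT SCI + SWIM and 1 of CONT SCI + SWW.

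Below that gene, separation without a call was looked at in genes with a mean of at least 100 counts. In 233 of 9307 such genes (2.5%) every CONT SCI liver lay on one side of every No SCI liver, with 123 (1.32%) higher and 110 (1.18%) lower in CONT SCI. These genes were not called by the adjusted test, apart from the gene above. The 2 with the smallest unadjusted p in each direction were named. The gene above was 1 of them, so 3 are given below, 1 higher and 2 lower.

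ENSRNOG00000005930 was at 36.3, 43.6, 45.3 and 33.8 CPM in the No SCI livers. It was at 67.6, 84.1, 74.4 and 76.0 CPM in the CONT SCI livers. The lowest injured liver was thus well above the highest uninjured one, with means of 39.74 ± 5.56 and 75.54 ± 6.79 CPM (SD, n = 4 each). The log2 fold change was 0.93 (SE 0.13, 95% interval 0.65 to 1.21), and the adjusted p by edgeR's quasi-likelihood test was 0.0878. This gene crossed the threshold without No SCI replicate 2, at an adjusted p of 0.0318 by edgeR, and over the 8 livers left out in turn its adjusted p ran from that value to 0.595. DESeq2 gave it an adjusted p of 2.4e-07. In the trained and transected groups its median lay between 66.55 and 104.4 CPM over 37 libraries, against 39.76 in No SCI. In the In-Cage set its log2 fold change was 0.32 (SE 0.33), with an adjusted p of 0.505 by edgeR's quasi-likelihood test. There the groups overlapped, at 27.98 to 78.43 CPM in No SCI + Standard and 29.31 to 93.02 in CONT SCI + Tiny. The difference between the sets was 0.59 (SE 0.39), with an adjusted p of 0.344 in edgeR's interaction test.

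ENSRNOG00000019422 was at 78.4, 42.8, 72.1 and 23.96 CPM in the No SCI livers. It was at 11.6, 4.03, 10.5 and 12.99 CPM in the CONT SCI livers. All injured livers were low, while the uninjured ones covered a wide range, with 54.32 ± 25.5 CPM in No SCI and 9.78 ± 3.96 in CONT SCI (SD, n = 4 each). Its log2 fold change was -2.47 (SE 0.43, 95% interval -3.44 to -1.51), a level 5.56-fold lower in CONT SCI, with an adjusted p of 0.322 by edgeR's quasi-likelihood test. DESeq2 gave an adjusted p of 4.83e-07. In the In-Cage set, with no library in common, the same gene fell by 2.21 on the log2 scale (SE 0.40, adjusted p 0.0243 by edgeR's quasi-likelihood test). In that comparison injury and a smaller cage went together. The number of In-Cage calls moved far with single livers, as given below, and this call was not followed with a liver left out. Over 37 libraries the level was 5.381 to 21.93 CPM in CONT SCI + Tiny and 23.99 to 73.56 in No SCI + Standard. In CONT SCI + Large it was 3.547 to 64.83 CPM, which overlapped the uninjured livers. The other injured groups of the Exercise set overlapped its No SCI livers (23.79 to 78.43 CPM) too. The gene was at 6.909 to 70.42 CPM in CONT SCI + SWIM, 6.687 to 26.04 in CONT SCI + SWW and 13.34 to 28.78 in TX SCI. Their medians were 16.1, 18.5 and 20.85 CPM, against 57.01 in No SCI. The difference between the sets for ENSRNOG00000019422 was -0.28 (SE 0.62), with an adjusted p of 0.806 in edgeR's interaction test.

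ENSRNOG00000014090, a more abundant transcript, was at 603, 358, 450 and 577 CPM in the No SCI livers. It was at 257, 228, 219 and 110 CPM in the CONT SCI livers. The lowest of the uninjured livers was No SCI replicate 2, and CONT SCI replicate 4 lay below the other injured ones. The means were 496.9 ± 114 and 203.8 ± 64.6 CPM (SD, n = 4 each), a log2 fold change of -1.29 (SE 0.26, 95% interval -1.86 to -0.71) with an adjusted p of 0.381 by edgeR's quasi-likelihood test. DESeq2 gave an adjusted p of 0.000943. Over 37 libraries the trained and transected groups overlapped No SCI (355.5 to 602.8 CPM). The level was 146 to 482.9 CPM in CONT SCI + SWIM, 165.3 to 376.2 in CONT SCI + SWW and 181.7 to 391 in TX SCI. Their medians were 238.7, 187.7 and 258.3 CPM, against 509.4 in No SCI. In the In-Cage set this gene was at a log2 fold change of -0.10 (SE 0.16), and the difference between the sets, -1.21 (SE 0.31), had an adjusted p of 0.0725 in edgeR's interaction test.

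These 3 genes were picked for groups that do not overlap, so that separation is a description and no test of them. Only ENSRNOG00000019422 of the 4 named genes had an adjusted p under 0.05 in the In-Cage set, and only ENSRNOG00000021345 had a difference between the sets past that threshold.

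The size of the contusion difference over all genes was small against its error. The median log2 fold change was -0.0025, and 49.4% of the tested genes were higher in CONT SCI. The median size of the log2 fold change was 0.12, and the size exceeded 0.39 in 10% of the genes. The median standard error was 0.18, larger than the median size. A difference of more than 2-fold was estimated for 102 genes, 50 higher and 52 lower. Many of these were thinly counted, with a median of 92.2 reads per library against 379 over all genes tested.

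The 95% intervals give a range for each difference, gene by gene, with all 8 livers and without adjustment for the number of genes. The interval of the log2 fold change lay within ±1, that is within a 2-fold change in either direction, for 10731 genes (86%). It lay within a 1.5-fold change for 6861 genes (55%). For 8 genes it lay wholly beyond 2-fold, 4 in each direction, and 5 of these had a mean under 100 counts. No gene had at least 10 reads in every library of one group and none in the other group.

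**Figure D3:**
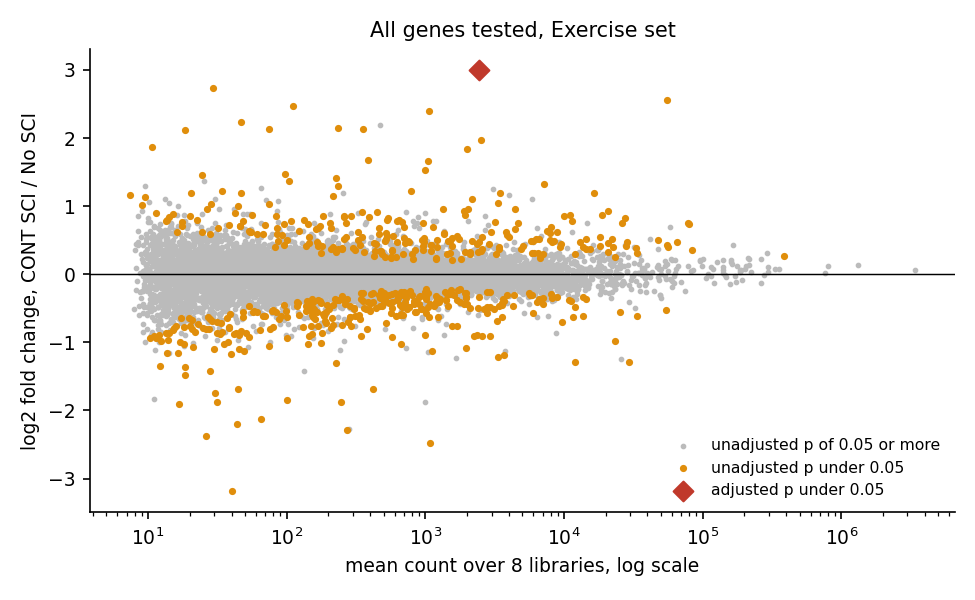
Log2 fold change of CONT SCI over No SCI for each of the 12482 genes tested (vertical axis) against its mean count over the 8 libraries (log axis). Orange points have an unadjusted p under 0.05 (561 genes), and the red diamond is ENSRNOG00000021345 at 2.99.

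Precision was lowest in thinly counted genes. Under 30 reads per library (1332 genes) the median standard error was 0.37 and 37.8% of the intervals lay within ±1. From 300 to 1000 reads (3557 genes) these values were 0.14 and 96.6%, and from 1000 to 3000 reads (2057 genes) 0.13 and 96.6%. With at least 3000 reads (1261 genes) they were 0.15 and 94.4%, no better than in the classes just below. For genes under 30 reads, the intervals therefore often left room for a 2-fold change. A high count did not ensure a call: ENSRNOG00000014090, with a mean of 11903 reads, was estimated 2.44-fold lower in CONT SCI. Its adjusted p by edgeR's quasi-likelihood test was 0.381. Genes with an unadjusted p under 0.05 made up 3.65% to 4.76% of each class of genes below 3000 reads, with more lower than higher genes in every such class. In the 1261 genes with at least 3000 reads they made up 8.33%, and there 67 were higher and 38 lower.

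The most abundant transcripts were looked at as a class. The 10 genes with the highest mean counts took 25.1% ± 0.369 of the reads in CONT SCI and 24.3% ± 0.751 in No SCI (SD, n = 4 each), and all 10 had a log2 fold change above 0, between 0.02 and 0.31. Of these 10, 1 had an unadjusted p under 0.05, and all 10 had an interval within ±1. The 10 genes share the scaling factors of the same libraries, so their common sign is not 10 separate observations. The share of reads in each library's own 10 most abundant genes overlapped, at 24.1% to 25.64% in No SCI and 24.82% to 25.5% in CONT SCI. The 100 most abundant genes took 52.8% ± 0.361 and 51.2% ± 1.18 of the reads. Among them 9 were higher and 1 lower at an unadjusted p under 0.05, that is 10% against 4.49% of all genes tested, and 93 had an interval within ±1. Their log2 fold changes ran from -0.52 to 2.55. The gene at 2.55 (SE 0.87), looked at after its value was seen, had 60.05 to 1354 CPM in No SCI and 913.2 to 4243 CPM in CONT SCI, so the groups overlapped. Its adjusted p by edgeR's quasi-likelihood test was 0.954.

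The uninjured livers had the larger spread. The median standard deviation of log2(CPM + 1) was 0.22 in No SCI and 0.16 in CONT SCI, and it was larger in No SCI for 70.4% of genes. Without No SCI replicate 2 the median in the uninjured livers was 0.17, and 55.3% of genes had the larger standard deviation there. The biological coefficient of variation estimated by edgeR was 0.245 in the 4 No SCI livers, 0.194 without replicate 2, and 0.167 in the 4 CONT SCI livers. Whether the groups differ in spread was not tested.

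No SCI replicate 2 carried weight in the comparison. Without No SCI replicate 2, 1982 of 12574 genes (15.8%) had an unadjusted p under 0.05, 952 (7.57%) higher and 1030 (8.19%) lower, and 9 (0.0716%) were called by edgeR after adjustment, 6 higher and 3 lower. ENSRNOG00000021345 was 1 of the 9, and 8 of them also had an unadjusted p under 0.05 with all 8 livers. Leaving out any of the other 7 livers gave 1 or 2 calls and 382 to 578 genes at an unadjusted p under 0.05. In the genes that passed this unadjusted level without it and were tested with it (1974), replicate 2 lay nearer the CONT SCI mean than the mean of the other uninjured livers in 1700 (86.1%), against 73% of all genes tested. It lay beyond the CONT SCI mean in 1353 of them (68.5%), against 63.1% of all genes tested. For most genes tested, then, this uninjured liver sat on the side of the contused livers or past them.

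**Figure D4:**
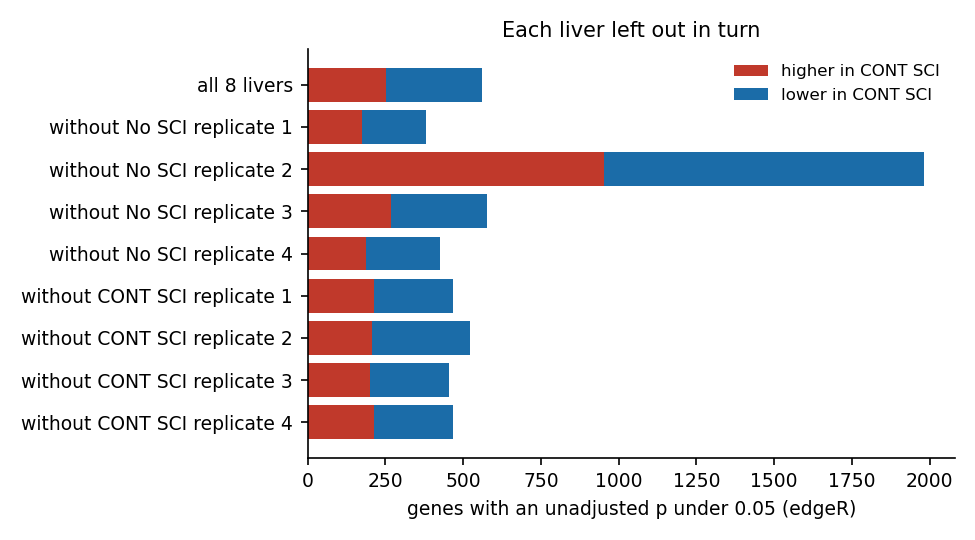
Number of genes with an unadjusted p under 0.05 by edgeR (horizontal axis), higher (red) and lower (blue) in CONT SCI, with all 8 livers and with each liver left out. The count is 561 with all 8, 1982 without No SCI replicate 2, and 382 to 578 without any other liver.

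The In-Cage set offered an independent comparison of contused with uninjured rats, with no library in common and 5 rats per group. There CONT SCI + Tiny rats were set against No SCI + Standard rats, so injury and a smaller cage went together, whereas in the Exercise set both groups lived in tiny cages. In that set 1479 of 11859 genes (12.5%) were called by edgeR's quasi-likelihood test, and 1477 of them were tested in the Exercise livers. The number of In-Cage calls moved far with single livers of that set. It was 15 without No SCI + Standard replicate 4, 125 without replicate 5, 692 without replicate 2 and 2998 without replicate 1 of that group. Without CONT SCI + Tiny replicates 1, 2, 3 and 5 in turn it was 85, 793, 72 and 199. The gene lists below, taken with all 10 livers, are therefore themselves uncertain in their membership. With an In-Cage liver left out, the share of In-Cage calls with the same sign in the Exercise livers lay between 20%, from 15 genes, and 28.1%. Those lists share most of their livers and were set against the same Exercise fold changes, so this range does not measure how stable the share is. The median size of the log2 fold change over the 11761 genes tested in both sets was 0.28 there and 0.12 here.

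The genes that rose in the In-Cage set did not stand higher in the contused Exercise livers. Of 644 such genes, 164 (25.5%) had the same sign here, and their median log2 fold change was -0.090 (quartiles -0.19 and 0.0019) against 0.68 in the In-Cage set. At an unadjusted p under 0.05, 26 of them (4.04%) passed here, 4 higher and 22 lower, close to the 4.49% over all genes tested. Of the 833 genes that fell in the In-Cage set, 208 (25%) had the same sign here, with a median of 0.095 (quartiles 0.00015 and 0.20) against -0.65. Of these, 29 (3.48%) had an unadjusted p under 0.05 here, 21 higher and 8 lower. The 95% interval here excluded the In-Cage estimate for 617 of the 644 (95.8%) and for 759 of the 833 (91.1%), counting the error of the Exercise estimate alone. With the errors of both sets, in the interaction test described below, the difference passed after adjustment for 11 of the 644 and 10 of the 833. The In-Cage estimates are those of genes picked by their In-Cage result, which favours large values.

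Across the 11761 genes the log2 fold changes of the sets had a Pearson r of -0.225 and a Spearman rho of -0.313, given as a description across genes, which are not independent and share the libraries of each set. The sign of this relation depended on 1 uninjured liver. Without No SCI replicate 4, r was 0.026 and 51.5% of the In-Cage calls had the same sign here, against 25.2% with all livers. Without No SCI replicate 2, r was -0.372 and the share was 16.5%.

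Values per liver show this. For each liver the mean of log2(CPM + 1) over the 644 In-Cage higher genes was taken relative to the mean of the 8 livers. It was -0.02, -0.19, 0.13 and 0.24 in No SCI replicates 1 to 4, and 0.04, -0.08, -0.14 and 0.03 in CONT SCI replicates 1 to 4. For the 833 In-Cage lower genes it was 0.09, 0.25, -0.18 and -0.37 in No SCI, and -0.01, 0.11, 0.17 and -0.06 in CONT SCI. The groups overlapped in both lists, and the uninjured livers held both the lowest and the highest value of each.

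**Figure D5:**
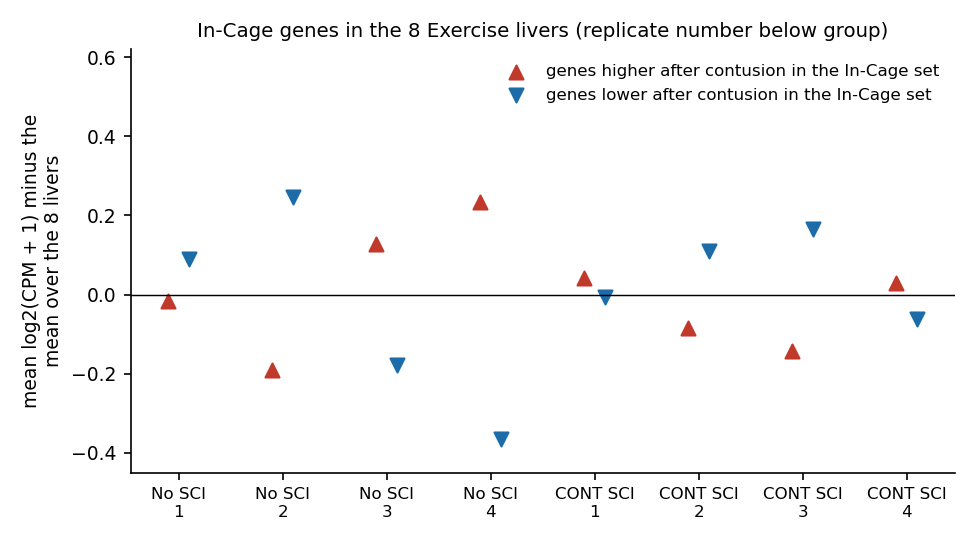
Mean log2(CPM + 1) in each Exercise liver, relative to the mean of the 8, of genes called higher (red, 644 genes) or lower (blue, 833 genes) after contusion in the In-Cage set. No SCI replicates 2 and 4 lie at opposite ends of both lists, and the CONT SCI livers lie between them.

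Whether the contusion difference was the same in both sets was tested gene by gene with an interaction term over the 18 libraries. The difference passed for 25 of 12571 genes (0.199%) after Benjamini-Hochberg adjustment in edgeR, and 3163 (25.2%) had an unadjusted p under 0.05. Relative to the In-Cage set the contusion difference was higher in the Exercise set for 11 of the 25 and lower for 14, from -3.81 to 2.74 on the log2 scale. In 24 of the 25 the sign was opposite in the sets, with 10 higher here and lower there and 14 the reverse, against 61.9% of opposite signs over all genes tested in both sets. Genes picked for a difference between the sets favour opposite signs. Most of them had moved in the In-Cage set, where 21 were called, and 1 was called here. That one was ENSRNOG00000021345, whose log2 fold change differed by 2.74 (SE 0.30, adjusted p 0.00019 by edgeR's interaction test). The number of such genes was unstable, at 2010 without No SCI replicate 2 and 1031 without No SCI + Standard replicate 1, and at 1 without CONT SCI replicate 3 or 4 of the Exercise set, whereas ENSRNOG00000021345 passed with any of the 18 libraries left out.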

How the data were processed

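Liver poly(A) RNA of 37 rats was sequenced as single-end reads from stranded libraries. The authors checked reads with FastQC 0.10.1, aligned them to the Rn6 genome with STAR 2.6, counted them on Ensembl 93 genes with HTSeq 0.10.0 using strand, left out mitochondrial genes, and deposited raw counts per gene and library without normalization. All 37 columns matched a label. Groups and replicate numbers came from the labels. Each library is 1 rat, and cage-mates came from the same group, but nothing states which rats shared a cage.

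Differences were tested in R 4.3.3 with edgeR 4.0.16 (TMM, filterByExpr at min.count 10 and min.total.count 15, robust glmQLFit, glmQLFTest) on the 4 CONT SCI and 4 No SCI libraries, with Benjamini-Hochberg adjustment over all genes tested and a threshold of 0.05. The difference between sets was an interaction term over 18 libraries. Standard errors and 95% intervals came from the same fits. The pseudocount of log2(CPM + 1) was 1. Scripts were tested on simulated data. Alternatives were DESeq2 1.42.0, RLE scaling, no filter, all 5 groups in one fit, a replicate block, each library left out, and limma 3.58.1 voom with sample weights.

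The samples and gene lists were chosen with earlier results of these data known. Named genes are the call and, among genes with a mean of at least 100 counts and groups that do not overlap, those with the smallest unadjusted p. The rule asked for 10 such genes per direction with a gene symbol. None of the identifiers (0) matched the 47357 genes of the RefSeq table, so 2 per direction are given by identifier, a choice made after the values were seen. For the same reason, 26 gene lists with 508 entries, the neighbours of the called gene and markers of the tissue were not analysed here.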

Additional observations from a re-analysis of the deposited data

Results flagged for a closer look

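In 44 groups of values of 4 or 5 libraries, a library was looked for that lay far outside the others of its group by Dixon's criterion, which chance meets in about 1 group in 20, and 3 were found. In the In-Cage No SCI + Standard group, replicate 1 had 467.3 CPM of ENSRNOG00000021345, the gene called between CONT SCI and No SCI, and the other 4 livers had 171.1 to 251. In CONT SCI + SWIM, replicate 5 had 70.42 CPM of ENSRNOG00000019422, and the other 4 livers had 6.909 to 22.01. In the Exercise No SCI group, replicate 3 gave 25.64% of its reads to its 10 most abundant genes, and the others gave 24.1% to 24.22%.

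The contusion difference was not the same in the Exercise and the In-Cage set for 25 genes by edgeR's interaction test. For ENSRNOG00000021345 it was larger in the Exercise set by 2.74 on the log2 scale. The sets were separate groups of rats and also differed in cage size of the uninjured rats, so these differences cannot be told apart from a set or cage difference. In contused untrained rats in tiny cages, ENSRNOG00000021345 was at 120.7 to 140.4 CPM over 37 libraries in the Exercise set. It was at 286.2 to 371.9 CPM in the In-Cage set.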

How the results depend on the processing

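The number of genes called between CONT SCI and No SCI was 1 with TMM and with RLE scaling, 3 without a filter on low counts, 68 with DESeq2, 0 with all 5 groups of the Exercise set in one edgeR fit (414 at an unadjusted p under 0.05), and 2 with limma voom and sample weights, which was added after the data were seen. With each of the 8 livers left out it ran from 1 to 9. The count at an unadjusted p under 0.05 ran from 382 to 1982 with a liver left out and was 1142 with the sample weights, which gave No SCI replicate 2 a weight of 0.324. The number of genes whose groups did not overlap ran from 339 to 1444 with a liver left out, where fewer livers have to be separated. The number of genes differing from the In-Cage set was 789 with DESeq2 and ran from 1 to 2010 with a library left out. Among the fits with a library left out, the one without No SCI replicate 2 gave the highest of these counts each time.

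Livers with the same replicate number did not deviate together throughout (correlations of -0.021, 0.39, -0.081 and 0.33 for numbers 1 to 4), and nothing says that numbers pair rats. With the replicate number as a block 13 genes were called, 11 higher and 2 lower.

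Of the 4 named genes none changed direction. The log2 fold change of ENSRNOG00000021345 ran from 2.96 to 3.03 with a liver left out. ENSRNOG00000005930 passed the threshold in 5 of 14 settings, and each gene that was lower passed in 1, DESeq2. Without No SCI replicate 4, the correlation with the In-Cage set (0.0259) and the share of In-Cage calls with the same sign (51.5%) reversed. They kept their direction in the other 19 settings each, with -0.372 and 16.5% without No SCI replicate 2 as the lowest values. Many of these settings left out only an In-Cage liver. The jackknife standard error over the Exercise livers was 0.307 for the correlation of -0.225. For the share of 25.2% it was 30.2 percentage points, so the direction of neither is settled. These 2 relations and their alternatives were added after the data were seen. The cause of these changes was not tested. List medians were not run, since no identifier could be matched to a symbol.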
